A study of Mus musculus with 24 samples.

Results

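The genes described here encode complement and coagulation proteins that hepatocytes make and release into the blood. A list of 32 genes was taken, with early and late complement components, clotting factors and the inhibitors and proteases that act on them, and 29 of the 32 had a probe set of their own among the 18820 genes of the array. Each of the 29 had 1 probe set. Masp2, Klkb1 and Cpb2 were not analysed here, the first pair because their probe sets were paired with several gene symbols.

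RNA was measured in 24 mouse livers, 1 array each, in 8 groups of 3 mice. Livers labelled control and livers labelled NEMO/JNKΔhepa triple knockout were taken from untreated mice of 52 weeks. Livers labelled control and JNKΔhepa double knockout were taken 40 days after diethylnitrosamine (DEN), a chemical carcinogen that acts on hepatocytes, and the same pair of labels was used 28 days after bile duct ligation (BDL), a model of cholestasis. The ages of the treated mice were not given. Livers labelled NEMO knockout and NEMO/JNK1Δhepa double knockout came from untreated mice of 8 weeks, and no control was labelled at that age. Per the labels' protocols, Cre was driven by the albumin promoter, which acts in hepatocytes, so other liver cells kept the floxed genes. JNKΔhepa mice carried floxed Jnk1 alleles with a germline deficiency of Jnk2, the mice were on a C57BL/6 background, and NEMOΔhepa and NEMO f/f mice were named as controls. NEMO, encoded by Ikbkg, is the regulatory subunit of the kinase complex that activates NF-κB. Mapk8 is the gene of JNK1 and Mapk9 that of JNK2, a pair of stress-activated kinases.

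Complement is a cascade of plasma proteases and pore-forming proteins. Lectins such as the mannose-binding lectins bind microbial sugars and activate the MASP proteases, which cleave C4 and C2. Cleavage of C5 then starts assembly of C6, C7, C8 and C9 into the membrane attack complex. Coagulation is a second protease cascade that ends in thrombin and fibrin, and several of its factors need a vitamin K dependent carboxylation in the hepatocyte before secretion. Because the liver supplies most of these proteins, plasma clotting tests are read as measures of hepatocyte function.

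Promoters of 23 of the 29 genes were matched by symbol in RefSeq sequences of GRCm38.p6. No promoter of C2, Cfi, Masp1, Plg, Kng1 or Proc was searched. Windows of 300 bases, 250 before and 50 after the start, were searched on both strands for 4 motifs of liver factors and of the basal promoter. A gene was counted once if any of its promoters matched, while the shares of all promoters count each promoter. The HNF1 site core GTTAAT was found in 8 of the 23 genes, or 34.8%, against 7.1% of all 32851 promoters. The C/EBP motif TTGCNNAA was found in 5 genes, or 21.7%, against 10.8% of all promoters, TATAAA in 3 genes, or 13%, against 13.6%, and the HNF4 motif CAAAGTCCA in 0 genes, against 0.475%. At 52 weeks, 4 of the 8 genes with GTTAAT were called lower, and so were 8 of the 15 without it. The 250 bases before the start are shown for the 4 genes with the largest differences at 52 weeks (C8a, Mbl1, C6 and C8b), for F11, which carried the only call after ligation, and for Hc and Vtn, which hold GTTAAT and passed no test. Capitals mark GTTAAT, TTGCNNAA or TATAAA on either strand, and in Vtn the TATAAA matches on the opposite strands overlap.
C8a, chr4:104876399-104876648, minus strand: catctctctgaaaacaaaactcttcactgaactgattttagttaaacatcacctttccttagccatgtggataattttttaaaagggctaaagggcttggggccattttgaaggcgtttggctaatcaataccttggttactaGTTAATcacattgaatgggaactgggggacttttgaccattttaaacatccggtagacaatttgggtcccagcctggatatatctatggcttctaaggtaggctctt
C8b, chr4:104766067-104766316, plus strand: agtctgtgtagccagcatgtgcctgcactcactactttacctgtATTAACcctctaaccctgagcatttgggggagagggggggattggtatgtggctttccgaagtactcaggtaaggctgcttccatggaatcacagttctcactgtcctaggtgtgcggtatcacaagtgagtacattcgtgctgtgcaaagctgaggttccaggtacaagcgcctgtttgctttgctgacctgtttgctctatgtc
Mbl1, chr14:41151206-41151455, plus strand: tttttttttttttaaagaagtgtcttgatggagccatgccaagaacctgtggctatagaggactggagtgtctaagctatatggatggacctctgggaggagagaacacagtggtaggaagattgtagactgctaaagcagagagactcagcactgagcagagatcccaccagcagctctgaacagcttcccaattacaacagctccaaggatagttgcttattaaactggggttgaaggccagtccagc
C6, chr15:4726960-4727209, plus strand: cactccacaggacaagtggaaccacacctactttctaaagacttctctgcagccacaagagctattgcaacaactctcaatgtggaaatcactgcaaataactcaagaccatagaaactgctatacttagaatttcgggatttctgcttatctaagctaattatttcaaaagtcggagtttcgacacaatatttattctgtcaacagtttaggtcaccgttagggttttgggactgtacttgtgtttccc
F11, chr8:45262032-45262281, minus strand: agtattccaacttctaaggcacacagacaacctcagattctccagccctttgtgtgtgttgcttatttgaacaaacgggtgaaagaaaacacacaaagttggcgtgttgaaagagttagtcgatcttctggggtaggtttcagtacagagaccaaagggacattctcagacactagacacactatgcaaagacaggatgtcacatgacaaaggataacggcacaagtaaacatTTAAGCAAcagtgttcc
Hc, chr2:35061413-35061662, minus strand: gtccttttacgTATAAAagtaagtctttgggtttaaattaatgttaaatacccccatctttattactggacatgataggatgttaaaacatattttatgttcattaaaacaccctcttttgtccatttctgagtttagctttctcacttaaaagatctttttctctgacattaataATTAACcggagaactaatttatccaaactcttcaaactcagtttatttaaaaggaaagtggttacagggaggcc
Vtn, chr11:78498870-78499119, plus strand: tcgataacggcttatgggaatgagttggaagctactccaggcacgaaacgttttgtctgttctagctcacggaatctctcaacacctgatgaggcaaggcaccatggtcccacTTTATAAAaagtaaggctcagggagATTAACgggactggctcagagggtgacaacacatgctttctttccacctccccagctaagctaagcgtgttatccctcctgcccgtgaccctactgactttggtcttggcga
Counted from the start, GTTAAT began at position -107 in C8a, -206 in C8b, -74 in Hc and -112 in Vtn. TTGCNNAA began at -17 in F11. Mbl1 and C6 held none of the 4 motifs in this window. C8a and C8b are neighbours on chromosome 4 with 0 genes between them, and F7, F10 and Proz follow each other on chromosome 8. These matches describe letters in a window and were not tested as binding sites.

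Array medians over all 35556 probe sets were 4.52 to 4.66 on the log2 scale. Centring, where used, took the median of the 18820 genes of each array instead. Arrays of a group correlated with r of 0.966 to 0.987 across probe sets, which are not independent replicates. The targeted genes gave a mixed check of the labels. Mapk9 stood between 2.82 and 3.51 in all 18 livers of the 52-week, DEN and BDL experiments, those labelled control included, and between 7.99 and 8.53 in the 6 livers of 8 weeks. Its difference between knockout and control labels was -0.28 at 52 weeks, -0.09 after DEN and 0.05 after BDL, with adjusted p of 0.257, 0.989 and 0.897. The controls of those 3 experiments are therefore written as livers labelled control, and a difference in JNK2 RNA between the groups compared was not detected in them. Mapk8 was lower in the knockout than in the livers labelled control at 52 weeks, by 0.87 with an adjusted p of 0.00259, and after BDL, by 1.02 with an adjusted p of 0.0299. Its differences of -0.64 after DEN and -0.61 at 8 weeks did not pass, with adjusted p of 0.985 and 0.602. Ikbkg was lower by 0.85 in the NEMO/JNK livers at 52 weeks, with an adjusted p of 0.0043. In the JNK group after DEN, replicate 3 had Xist at 10.38 and the Y-linked Eif2s3y, Uty and Kdm5d at 2.80, 2.81 and 3.66, while the other 23 livers had Xist at 2.16 to 3.87 and the 3 Y-linked genes at 5.82 or above. The labels gave no sex, so results with this group are also given without that liver. Of the 3 livers labelled control after BDL, only replicate 3 shared the animal series of the JNK livers, as read from the start of the mouse identifiers. At 8 weeks the animal series and the genotype cannot be told apart.

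All 29 genes lay in the upper part of the array scale. Their values over the 24 livers ran from 6.31, in F11, to 12.70, in Vtn, and the median gene had a mean of 5.29. The deposited values reached 13.48, and a group mean within 1 log2 unit of that value, above 12.48, was taken as near the top of the scale. Vtn, the gene of vitronectin, which blocks insertion of the membrane attack complex and binds matrix, was the only gene there, with group means of 12.30 to 12.53. Its 3 livers of the NEMO/JNK1 group stood at 12.39, 12.51 and 12.70, and its 3 NEMO livers at 12.31, 12.31 and 12.37. A mean at or above the 99th percentile of all genes, 11.06, was found for 11 genes, namely Vtn, Kng1, Plg, Hrg, Serpinc1, Serpinf2, F2, Hc, C8g, Cfi and Serpind1. C2, the serine protease of the classical and lectin convertase, had the lowest mean, 8.32, still at the 89.0th percentile. Values of different probe sets depend on their probes, so the order of genes on this scale is not an order of RNA amounts.

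The genes differed in how far they moved between groups. The span from the lowest to the highest of the 8 group means had a median of 0.63 among the 29 genes and 0.47 among all genes. It exceeded 1 in 7 genes, C8a with 2.24, F11 with 2.19, Mbl1 with 2.05, C6 with 1.90, C8b with 1.25, Mbl2 with 1.06 and F7 with 1.01. It was smallest in Hrg with 0.22, Serpinc1 with 0.22 and Vtn with 0.23. The lowest group mean was that of the NEMO/JNK livers of 52 weeks in 14 of the 29 genes, and of any other group in at most 4.

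**Figure D1:**
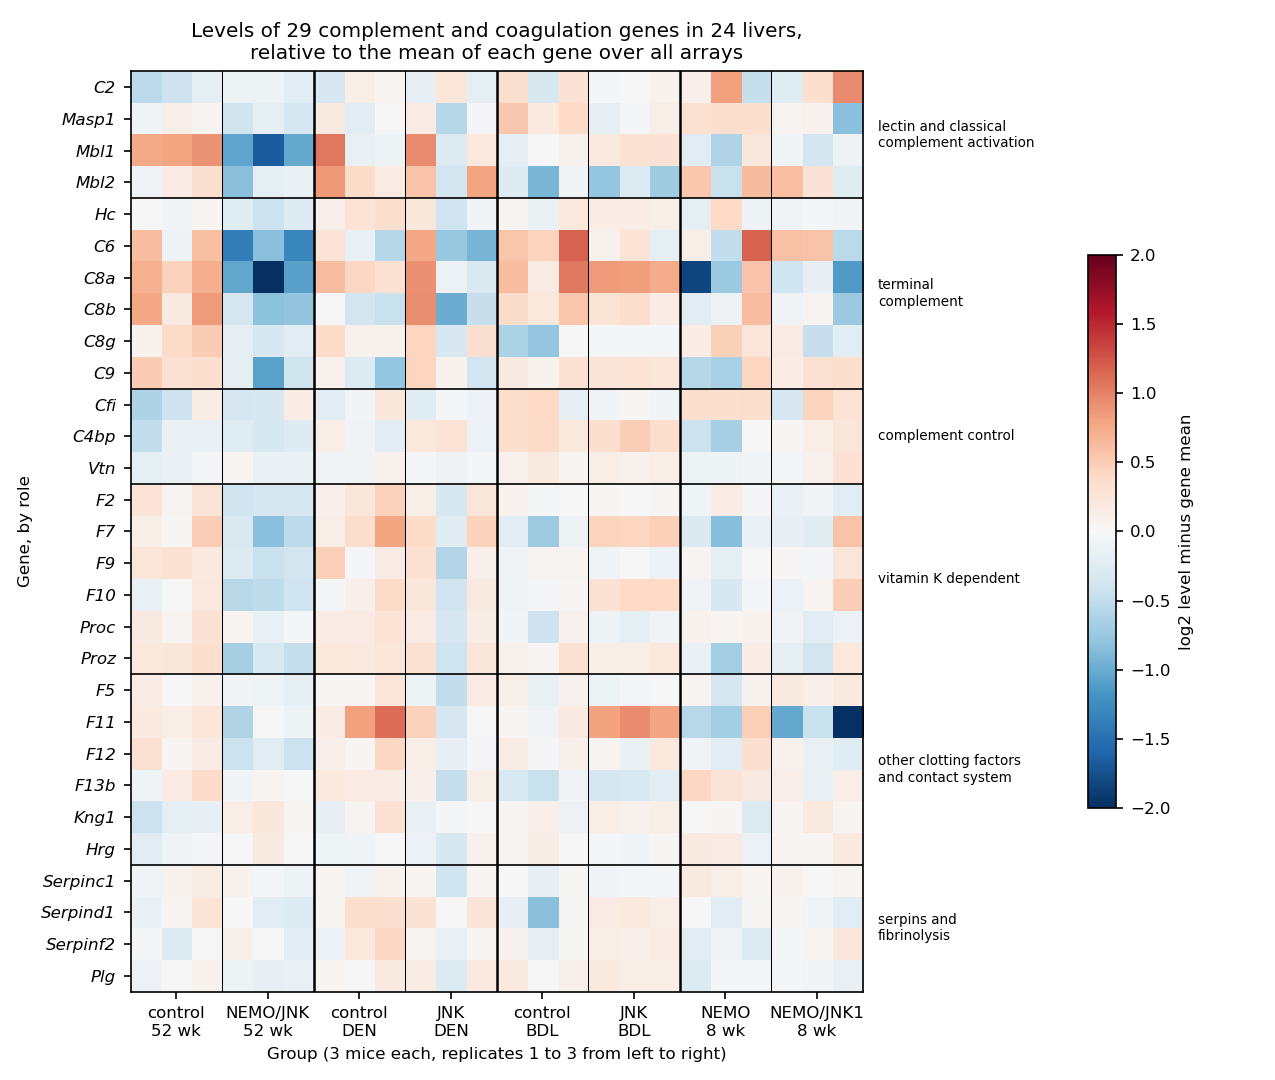
Level of each of 29 genes (rows, by role) in each of 24 livers (columns, 3 replicates in each of 8 groups), as the log2 level minus the mean of that gene over all arrays, with colours ending at 2 above and below. The NEMO/JNK livers of 52 weeks are blue over most terminal complement and vitamin K dependent genes, and replicate 2 of the JNK group after DEN is the bluest column of its experiment.

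The first comparison set livers labelled NEMO/JNKΔhepa against livers labelled control at 52 weeks. At 52 weeks, 12 of the 29 genes were lower in the NEMO/JNK livers than in the livers labelled control and 0 were higher, at an adjusted p under 0.05. Among all 18820 genes, 7.9% were called lower, 13.6% higher and 21.5% in either direction. The genes that fell were 5 of 6 terminal complement genes, 5 of 6 vitamin K dependent genes, Mbl1 and F12. The median difference of the 29 genes was -0.34, and that of all genes -0.05. The 2 groups did not overlap in 17 genes that were lower, against 20.3% of all genes, and in 2 that were higher, against 20.9%. In whole liver, fewer cells of a type and less RNA per cell cannot be told apart. Centring each array on its median gene raised the count to 22 genes, all lower, because the median difference of all genes moved from -0.05 to -0.37 and the calls among all genes from 2562 higher and 1486 lower to 1570 higher and 8942 lower. Relative to the median of all genes, the 29 genes stood at -0.29 as deposited, which centring cannot move, and at -0.18 under quantile normalisation.

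Terminal complement held 3 of the 4 largest falls among the 29 genes. C8a and C8b encode the alpha and beta chains of C8, which insert the growing complex into the membrane. C8a stood at 10.90, 10.65 and 10.92 in the livers labelled control and at 9.15, 8.03 and 9.10 in the NEMO/JNK livers. The groups were more than 1 log2 unit apart, and C8a was 4.18-fold lower, a log2 difference of -2.06 ± 0.28 (SE) with an adjusted p of 0.00129. C8b stood at 10.82, 10.23 and 10.90 against 9.71, 9.23 and 9.26. It was 2.38-fold lower, at -1.25 ± 0.21 with an adjusted p of 0.0035, and the lowest liver labelled control was above the highest NEMO/JNK liver. C8g encodes the gamma chain, a lipocalin that is bound to C8a but is not needed for lysis, and it fell less, by 0.56, from 11.26 to 11.70 down to 10.87 to 11.01, with an adjusted p of 0.0223. In 5 of the 6 fits that left out 1 mouse, C8g no longer passed, with adjusted p up to 0.0742.

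C6 links C5b to C7 at the start of assembly. It stood at 9.19, 8.47 and 9.17 in the livers labelled control and at 7.18, 7.73 and 7.26 in the NEMO/JNK livers. All 3 knockout livers were below all 3 others, and the gene was 2.94-fold lower at -1.55 ± 0.22, with an adjusted p of 0.00188. C9 forms the ring of the pore, and it stood at 10.95, 10.74 and 10.75 against 10.26, 9.37 and 10.04. It fell by 0.93 ± 0.21, with an adjusted p of 0.0158, and the call was lost without replicate 1 of the livers labelled control, at 0.0567. Hc encodes C5, the precursor of the C5a anaphylatoxin, and its groups did not overlap, at 11.25 to 11.35 and 10.87 to 11.07, but its difference of -0.30 had an adjusted p of 0.096.

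Of the 4 measured genes of lectin and classical activation, Mbl1 fell and 3 did not pass. Mbl1 encodes mannose-binding lectin A, a soluble pattern receptor. It stood at 9.76, 9.78 and 9.89 in the livers labelled control and at 7.95, 7.34 and 7.98 in the NEMO/JNK livers. The groups lay far apart next to their spread, and the gene was 4.14-fold lower, at -2.05 ± 0.18, with an adjusted p of 0.00017. Mbl2, which encodes mannose-binding lectin C, had a difference of -0.53 with an adjusted p of 0.0923. Masp1, the gene of a protease carried by these lectins, had a difference of -0.34 with an adjusted p of 0.08, and C2 one of 0.23 with 0.229. The groups of Mbl2 and Masp1 did not overlap.

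The vitamin K dependent genes fell by smaller amounts. F7 encodes the factor that starts clotting with tissue factor. It stood at 9.35, 9.27 and 9.73 in the livers labelled control and at 8.94, 8.40 and 8.71 in the NEMO/JNK livers, 1.69-fold lower at -0.76 ± 0.18 with an adjusted p of 0.0162. F10, its substrate and the enzyme of prothrombinase, fell by 0.51 with an adjusted p of 0.0238. Proz, a cofactor for inhibition of activated factor X, fell by 0.75 with an adjusted p of 0.00421. F9, the factor missing in haemophilia B, fell by 0.61 with an adjusted p of 0.0056, and its values were 10.23 to 10.34 in the livers labelled control and 9.60 to 9.76 in the NEMO/JNK livers. F2, the gene of prothrombin, fell by 0.55 with an adjusted p of 0.0108. Proc, the gene of the anticoagulant protein C, overlapped between groups, at -0.21 with an adjusted p of 0.25. The calls of F7 and F10 were lost without replicate 3 of either group, and that of F10 also without replicate 2 of the livers labelled control or replicate 1 or 2 of the NEMO/JNK livers.

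Of the other clotting genes, the complement regulators and the serpins, 1 of 13 passed. F12, which starts the contact pathway, fell by 0.52 with an adjusted p of 0.0201, a call that was lost without replicate 3 of either group or replicate 1 of the NEMO/JNK livers. F11, its substrate, had a difference of -0.42 with an adjusted p of 0.108, and F5 one of -0.19 with 0.269; neither overlapped between groups. Kng1 encodes high molecular weight kininogen, the precursor of bradykinin, and its values were 11.66 to 11.92 in the livers labelled control and 12.14 to 12.31 in the NEMO/JNK livers. Its difference of 0.39 had an adjusted p of 0.0533. Hrg, the histidine-rich glycoprotein, did not overlap either, at 0.17 with an adjusted p of 0.334. With arrays centred, 1 of the 29 genes was above 0 at 52 weeks in place of 6, with Kng1 at 0.07 and Hrg at -0.16. The inhibitors Serpinc1 (antithrombin), Serpind1 (heparin cofactor II) and Serpinf2 (antiplasmin), together with plasminogen, Plg, had differences of -0.22 to 0.06, and 0 of the 4 passed. F13b, the carrier subunit of factor XIII, had one of -0.16 with an adjusted p of 0.454. Cfi and C4bp, a protease and a cofactor in the breakdown of C4b, and Vtn had differences of -0.01 to 0.13, and 0 of these 3 passed.

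**Figure D2:**
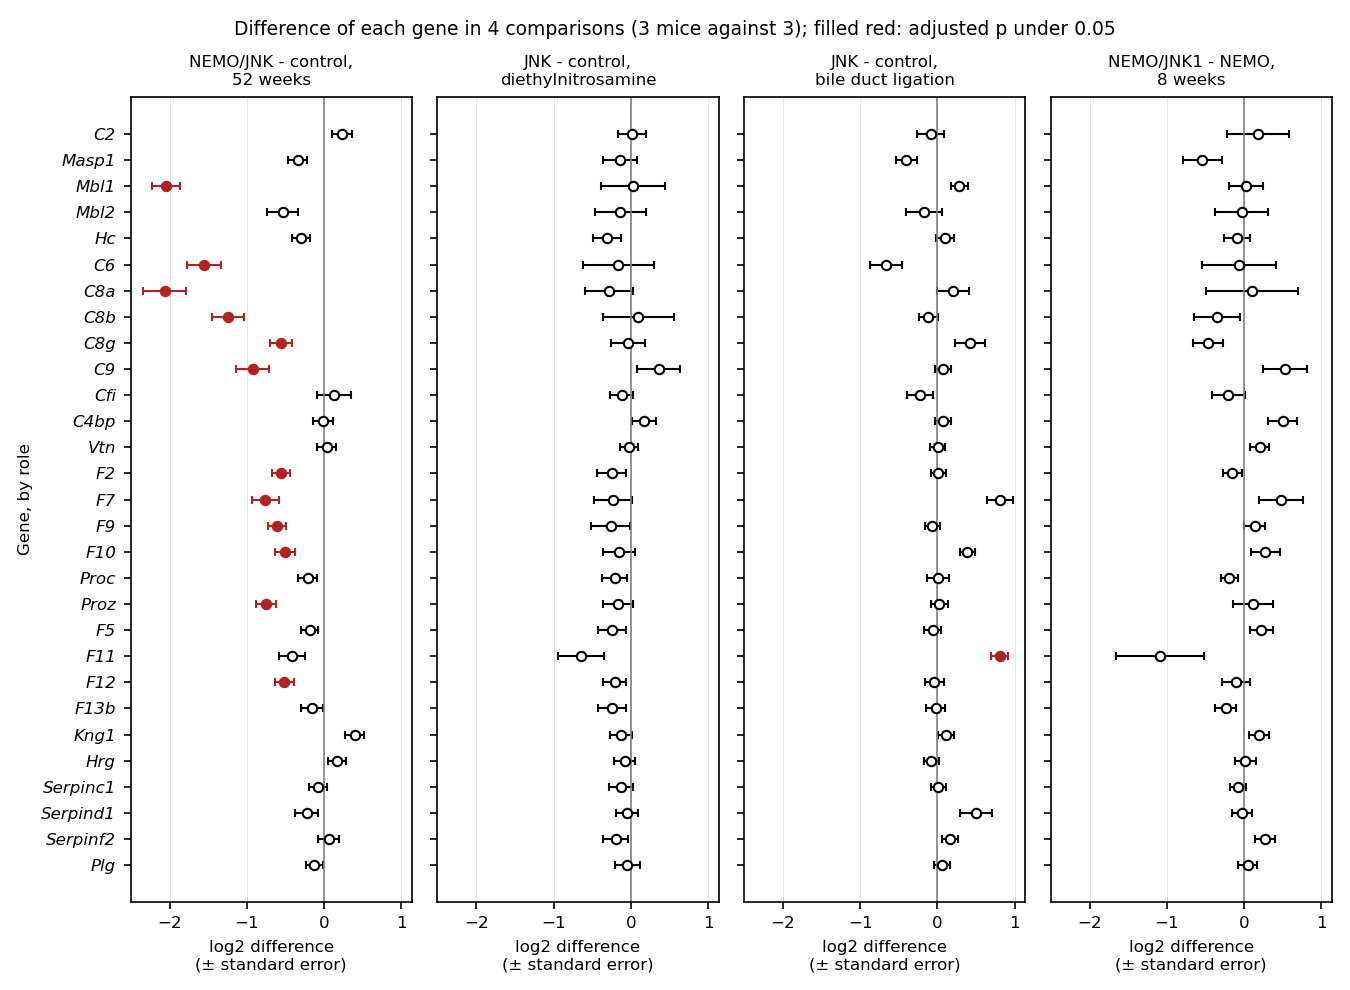
Log2 difference and standard error of each of 29 genes (rows, by role) in 4 comparisons of 3 mice with 3. Filled red points have an adjusted p under 0.05, which holds for 12 genes at 52 weeks, all to the left of 0, for F11 after bile duct ligation, and for 0 genes after DEN and at 8 weeks.

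The differences are also given by position on the array scale, as a description without a test. The groups of genes were set by means over all 24 arrays, the NEMO/JNK livers included. Of the 11 genes at or above the 99th percentile, 2 were called lower at 52 weeks, F2 and C8g, and their median difference was -0.08. Of the 18 genes below it, 10 were called lower, and their median was -0.52. Across the 29 genes, Spearman's rho between the level in the livers labelled control and the signed difference was 0.37, over genes that share the same 6 arrays. Near the top of the scale, an array signal can be compressed, and its part in these differences was not tested.

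**Figure D3:**
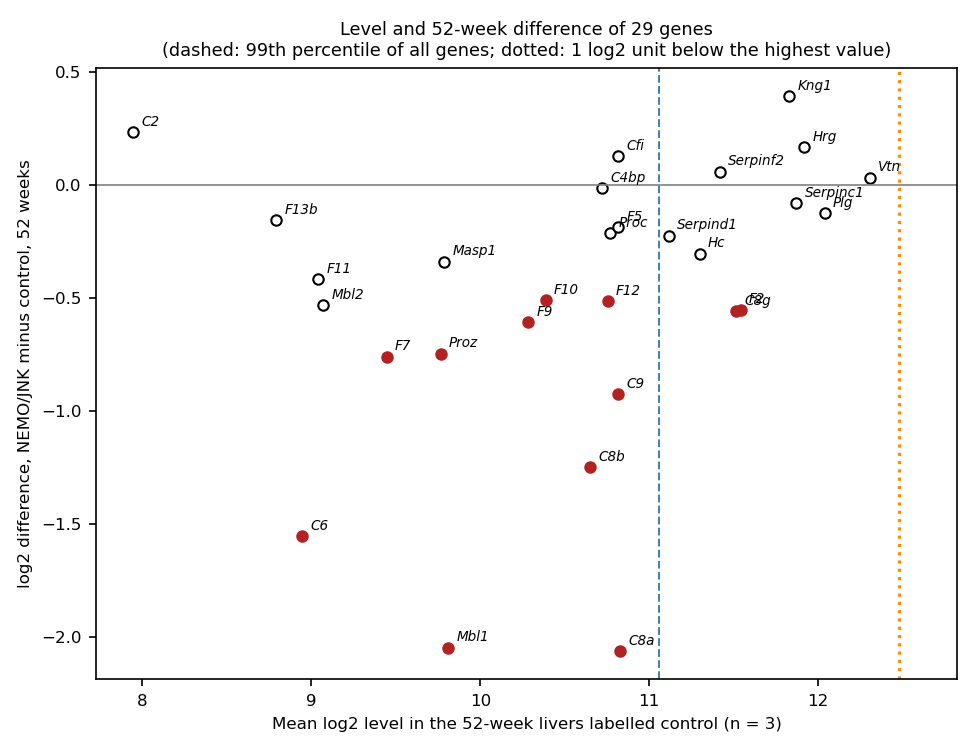
Log2 difference between NEMO/JNK livers and livers labelled control at 52 weeks (vertical axis) against the mean log2 level in the livers labelled control (horizontal axis) for 29 genes, filled red where the adjusted p was under 0.05. The 4 largest falls, C8a, Mbl1, C6 and C8b, lie left of the dashed line at 11.06, and no gene mean passes the dotted line at 12.48.

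Cell markers moved with the same groups at 52 weeks. Of 10 measured hepatocyte markers, 0 were higher and 1 was lower, the urea cycle gene Otc. The mean level of the list was 12.03 to 12.40 in the livers labelled control and 12.15 to 12.28 in the NEMO/JNK livers. In the livers labelled control after DEN, Alb, Apoa1, Apoa2, Ttr and Serpina1b had means of 12.7 to 13.3, above the limit of 12.48. Tat, Pck1, Otc, Cps1 and Asgr1 lay below it there. Compression of the signal of these markers was not tested. All 8 measured cholangiocyte markers were higher, and their mean level rose from 4.60 to 5.27 up to 8.00 to 8.65. Of 11 macrophage markers, 9 were higher and 0 lower, with means of 7.13 to 7.80 against 8.25 to 9.55. Of the other lists, 2 of 10 stellate and fibroblast markers were higher and 1 lower, 4 of 8 lymphocyte markers were higher, and 1 of 8 endothelial markers was lower. The part of these cells in the falls was not tested.

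Further genes of the same systems were read from lists beside the 29. Of 24 other liver-made complement and clotting genes, 5 were lower and 3 higher, with a median of -0.08. Colec10, the gene of collectin liver 1, fell by 2.09 with an adjusted p of 2.92e-05, and Itih1, a hyaluronan-binding plasma protein, by 0.83 with 0.00184. C1s1, a protease of C1, had a log2 difference of -1.26 with an adjusted p of 0.000413 and also fell. The other 2 that fell were C1rl and Colec11, and the 3 that rose were Pros1, the gene of protein S, Kng2 and Fetub, all 5 named after their values were seen. Kng2 is a close paralog of Kng1, and whether their probes tell them apart was not tested. Fibrinogen genes did not pass, with Fga at -0.06 and Fgb at 0.14, chosen after their values were seen.

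Of 32 measured genes on a list of complement and clotting genes of other cells, 15 were higher and 1 was lower. The cells that made each RNA were not measured. Clu on this list had means of 12.6 after BDL and 12.2 after DEN in the livers labelled control. Plat, the tissue plasminogen activator, rose by 2.25, Plaur, the urokinase receptor, by 1.70 and F3, tissue factor, by 1.08, with adjusted p of 0.000367, 0.00056 and 0.00116. Tfpi2, an inhibitor of serine proteases, fell by 1.30. Several of the 15, such as the C1q chains and Vsig4, are also on the macrophage list. Of 11 genes of the vitamin K cycle and of factor secretion, 3 were lower and 0 higher. They were Ggcx, the carboxylase that modifies the vitamin K dependent factors, which fell by 0.91 with an adjusted p of 0.0018, Pcsk6, a proprotein convertase, which fell by 1.68, and Hpn, a hepatocyte surface protease, which fell by 0.55. Of 16 liver transcription factors, Nr1h4, the bile acid receptor FXR, fell by 0.93 and Cebpa by 0.73, while Onecut2 rose by 0.47 with an adjusted p of 0.0447. Hnf4a had a difference of -0.13 with an adjusted p of 0.485 and was named after its values were seen.

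The second comparison set livers labelled JNKΔhepa against livers labelled control after DEN. In the JNK livers, 0 of the 29 genes and 0 of all genes, or 0%, passed the limma test. At an unadjusted p under 0.05 there were 0 of the 29 and 781 of all genes. Differences were below 0 in 24 of the 29 genes, with a median of -0.14 against -0.02 among all genes. The smallest p values belonged to F11, Hc and F12. F11 stood at 8.99, 9.66 and 9.96 in the livers labelled control and at 9.31, 8.51 and 8.85 in the JNK livers, and the groups overlapped at a difference of -0.65 ± 0.30. Hc stood at 11.41, 11.58 and 11.62 against 11.53, 10.90 and 11.25, a difference of -0.31 ± 0.18. F12 stood at 10.70, 10.63 and 11 against 10.72, 10.43 and 10.55, a difference of -0.21 ± 0.15. All 3 genes had an adjusted p of 0.985. Groups did not overlap in 1 gene, F13b, which was lower, against 6.21% of all genes, and in 0 that were higher, against 3.26%.

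This shift depended on replicate 2 of the JNK group. Replicate 2 of the JNK group was the lowest of the 6 DEN livers in 22 of the 29 genes, and the mean of the 29 genes was 10.15 there, against 10.70 and 10.47 in the other JNK livers and 10.52 to 10.60 in the livers labelled control. Its hepatocyte markers had a mean of 11.87, against 12.19 to 12.38 in the other 5 livers, and its cholangiocyte markers one of 7.40, against 4.80 to 6.18. Without it, 13 of the 29 differences were below 0 and the median was 0.00. Without replicate 1, the JNK liver with the mean of 10.70, 26 were below 0 with a median of -0.27. Without replicate 3, the liver with the Xist level of 10.38, 23 were below 0 with a median of -0.20. In each of these cases 0 of the 29 genes passed. Of the 4 further lists, with 24, 32, 11 and 16 genes, 0 genes passed after DEN, and 1, 1, 0 and 1 had an unadjusted p under 0.05.

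The third comparison set the same labels against each other after BDL. F11 was higher in the JNK livers and was the only one of the 29 genes to pass, where 0.797% of all genes were called higher, 0.558% lower and 1.35% in either direction. F11 encodes the zymogen of the protease that activates factor IX. It stood at 8.88, 8.77 and 9.02 in the livers labelled control and at 9.65, 9.80 and 9.64 in the JNK livers. The groups lay apart with little spread in each, and F11 was 1.75-fold higher, at 0.81 ± 0.11 with an adjusted p of 0.017. The call was lost with the animal series as a block, at 0.68 with an adjusted p of 0.115, with all 24 arrays in the fit, at 0.508, and without replicate 1 of the livers labelled control or any replicate of the JNK livers, at 0.066 to 0.0996. Within the series shared by both groups, the liver labelled control had 9.02, against 9.64 to 9.80 in the JNK livers.

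F7, the factor VII gene, had a difference of the same size but did not pass. It stood at 9.01, 8.51 and 9.14 in the livers labelled control and at 9.69, 9.67 and 9.72 in the JNK livers, and the groups did not overlap. Its difference of 0.81 ± 0.16 had an adjusted p of 0.068. F10 stood at 10.28, 10.32 and 10.39 against 10.65, 10.76 and 10.76, at 0.39 ± 0.10 with an adjusted p of 0.117. C6 went the other way without passing, at 9.13, 9.01 and 9.75 against 8.66, 8.85 and 8.37, a difference of -0.67 with an adjusted p of 0.197. Groups did not overlap in 6 genes that were higher (F11, F7, F10, Serpind1, Mbl1 and Serpinf2), against 9.95% of all genes, and in 2 that were lower (C6 and Masp1), against 10.7%. The median of the 29 genes was 0.01. Replicate 2 of the livers labelled control was the lowest of the 6 in 17 of the 29 genes, and without it F7 had an adjusted p of 0.0418. F7 also passed with a variance trend and robust fit. Without replicate 3 of the livers labelled control, the only one in the animal series of the JNK livers, F7 and C8g both passed as higher. Cholangiocyte markers had means of 5.47 to 6.39 in the livers labelled control and 6.67 to 7.43 in the JNK livers, hepatocyte markers 12.21 to 12.29 and 12.31 to 12.33, and their part in the difference was not tested. Of the 4 further lists, 0 genes passed after BDL by limma. In them 4, 8, 1 and 2 genes had an unadjusted p under 0.05, as did 2749 of all 18820 genes.

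**Figure D4:**
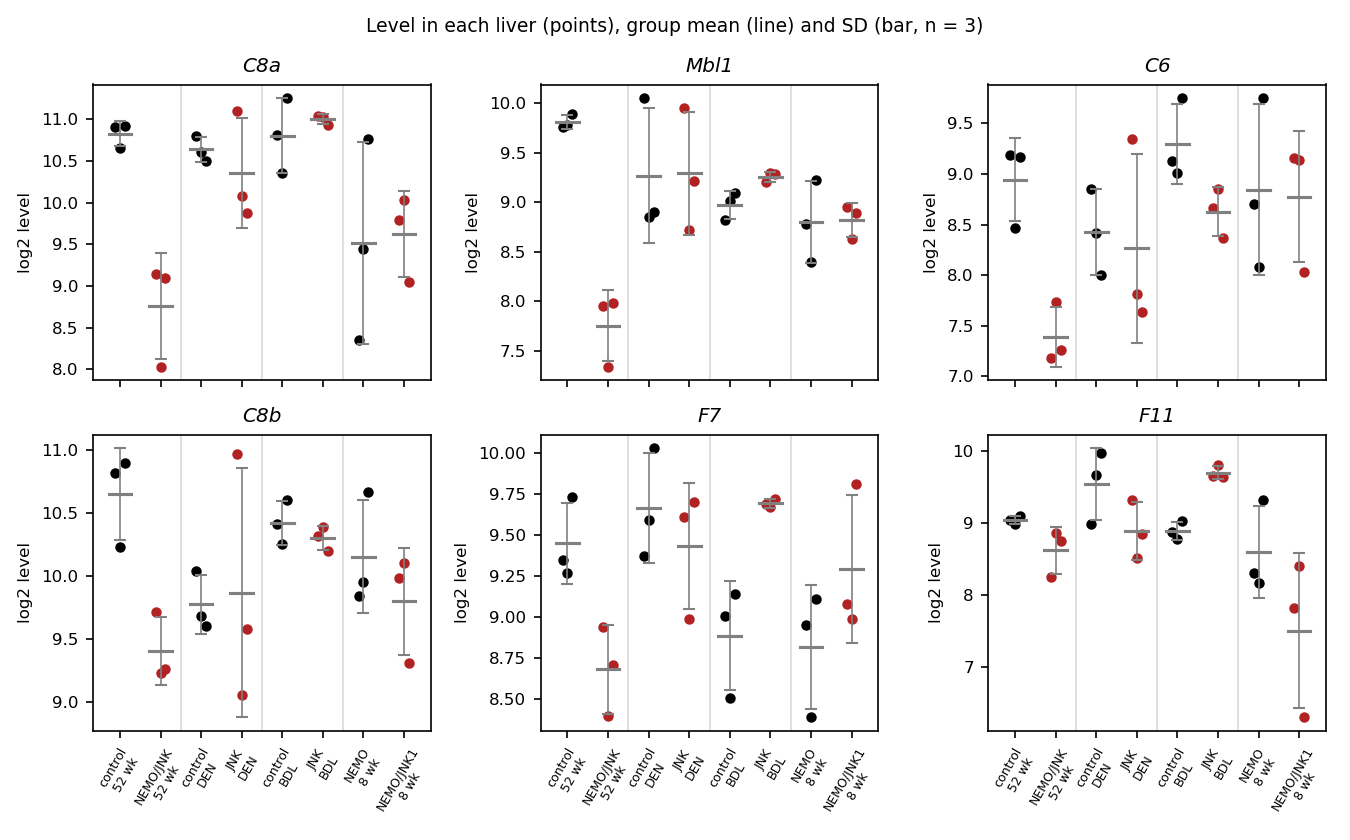
Log2 level of 6 genes in each of 24 livers (points, black for the control or NEMO group and red for the group with the further knockout of each experiment), with the group mean and SD over 3 mice. C8a, Mbl1, C6 and C8b are lowest in the NEMO/JNK livers of 52 weeks by group mean, and F11 and F7 separate the groups after bile duct ligation.

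The fourth comparison added the loss of JNK1 to that of NEMO at 8 weeks. Of the 29 genes, 0 passed the limma test, as did 0 of all genes, or 0%, and 2 of the 29 and 1442 of all genes had an unadjusted p under 0.05. C4bp, the gene of C4b-binding protein, stood at 10.55, 10.32 and 10.97 in the NEMO livers and at 11, 11.11 and 11.23 in the NEMO/JNK1 livers. The groups met without overlap and the difference of 0.50 ± 0.19 had an adjusted p of 0.624. C8g stood at 11.34, 11.68 and 11.44 against 11.36, 10.73 and 10.98, at -0.47 with an adjusted p of 0.647. Serpinf2 stood at 11.29, 11.44 and 11.24 against 11.48, 11.57 and 11.74, at 0.27 with the same adjusted p. Groups did not overlap in 5 genes that were higher (C4bp, Serpinf2, F5, Vtn and Kng1), against 6.71% of all genes, and in 3 that were lower (Masp1, F13b and Proc), against 7.66%.

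Some of the widest spreads within a group were seen at this age. C8a had values of 8.35, 9.44 and 10.76 in the NEMO livers, an SD of 1.21, its largest in any group. F11 had values of 7.82, 8.40 and 6.31 in the NEMO/JNK1 livers, an SD of 1.08. The lowest of these, 6.31 in replicate 3, was the lowest value of F11 in the 24 livers. The difference of F11 was -1.09 ± 0.57 with an adjusted p of 0.667.

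Ligation was also compared with DEN within each genotype label, where injury and experiment cannot be told apart. In the livers labelled control, 0 of the 29 genes passed, against 2.48% of all genes. At an unadjusted p under 0.05 there were 11 of the 29 and 3604 of all 18820 genes. C8b stood at 10.41, 10.25 and 10.60 after BDL and at 10.04, 9.68 and 9.60 after DEN, at 0.65 ± 0.16 with an adjusted p of 0.0802. F7 was at 9.01, 8.51 and 9.14 after BDL and at 9.37, 9.59 and 10.03 after DEN, a difference of -0.78 with an adjusted p of 0.116. Mbl2 stood at 8.67, 8.01 and 8.87 against 9.79, 9.30 and 9.10, at -0.88 with an adjusted p of 0.125. Groups did not overlap in 4 genes that were higher after BDL, against 12.8% of all genes, and in 7 that were lower, against 12.2%. Of the further lists, Plat rose by 1.91, Itgam by 1.21 and Pcsk6 fell by 1.10, with adjusted p of 0.0223, 0.0493 and 0.0486; they were named after their values were seen. Of the cell markers, 8 of 10 stellate and fibroblast, 3 of 8 cholangiocyte and 1 of 11 macrophage markers were higher and 1 of 8 endothelial markers was lower, and their part was not tested.

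In the JNK livers, 0 of the 29 genes passed, against 1.08% of all genes. At an unadjusted p under 0.05 there were 2 of the 29 and 2530 of all 18820 genes. F11 was at 9.65, 9.80 and 9.64 after BDL and at 9.31, 8.51 and 8.85 after DEN, at 0.81 ± 0.20 with an adjusted p of 0.141, and it passed without replicate 1 of the DEN livers, at 0.041. Mbl2 was at 8.15, 8.65 and 8.21 against 9.50, 8.56 and 9.72, at -0.92 with an adjusted p of 0.257, and it passed without replicate 2 of the DEN livers, at 0.0125. C8a was at 11.04, 11.03 and 10.93 against 11.10, 10.08 and 9.88, at 0.65 with an adjusted p of 0.429, and it passed without replicate 1 of the DEN livers, at 0.0254. Groups did not overlap in 6 genes that were higher, against 10.5%, and in 0 that were lower, against 9.39%. Without the DEN liver with the Xist level of 10.38, 0 of the 29 genes passed. Of the further lists, Pros1 rose by 0.87 and Itih3 by 0.93, and Cebpa fell by 0.79 and Nr1h4 by 0.84, with adjusted p of 0.029, 0.0367, 0.0308 and 0.0307, all named after their values were seen. Of the cell markers, 5 of 10 stellate and fibroblast and 1 of 11 macrophage markers were higher, and their part was not tested.

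Whether the JNK difference itself differed between the injuries was tested over the 12 arrays of both experiments, which the preceding comparisons share. Of the 29 genes, 0 passed, against 0.0478% of all genes. At an unadjusted p under 0.05 there were 3 of the 29 and 1338 of all 18820 genes. F11 was lower by 0.65 in the JNK livers after DEN and higher by 0.81 after BDL, a difference of 1.46 ± 0.34 with an adjusted p of 0.283. F7 had differences of -0.23 and 0.81, and 1.04 ± 0.32 between them with an adjusted p of 0.54. F10 had differences of -0.15 and 0.39, and 0.54 ± 0.23 between them with an adjusted p of 0.659. Of the 29 genes, only F11 was called in any comparison of the treated mice, and its differences at 52 and 8 weeks were not called.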

How the data were processed

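RNA of 24 mouse livers was hybridised to a whole-transcript Affymetrix array. The deposited values are RMA log2 levels, 1 per probe set, as the authors computed them, per the submitters' processing notes; the sources used here do not give the chip definition, RMA program or build. No detection call was used. Precision is limited by the number of arrays. Probe sets with 1 gene symbol in the platform annotation gave 18820 genes, each by the probe set with the highest mean, updated by Entrez identifier to RefSeq of GRCm38.p6.

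Each comparison was fitted on its own arrays over all genes with limma 3.58.1 in R 4.3.3 (lmFit and eBayes, two-sided, no filter), with Benjamini-Hochberg adjustment and an adjusted p under 0.05 as the call. The script was tested on simulated data. An exact permutation test of 3 mice against 3 cannot go below 0.1, so none was used. The genes, gene lists and tests were chosen with earlier results of these data known. By rule, values in every liver are given for up to 6 called rises and falls of a comparison, or for the 3 smallest p where fewer than 3 were called, and up to 3 called genes are named from each list. Alternatives were other scalings, filters, probe sets, samples, blocks and variance models, and leaving out each mouse.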

Additional observations from a re-analysis of the deposited data

How the results depend on the processing

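At 52 weeks the count of genes that passed was 12 of 29; it was 22 with arrays centred on their medians, 11 under quantile normalisation (10 lower, without F10 and F12, and Kng1 higher), 13 without dim genes (12 lower and Kng1 higher), 12 with all 24 arrays (11 lower, without C8g, and Kng1 higher), 15 with a variance trend and robust fit (14 lower and Kng1 higher), and 8 to 11 without 1 mouse. After BDL the count of 1 became 0 with all 24 arrays, 0 with the animal series as a block, 2 with a variance trend and robust fit, and 0 to 3 without 1 mouse. For ligation against DEN in the livers labelled control the count of 0 became 1 under quantile normalisation (C8b, adjusted p 0.0393) and 0 to 1 without 1 mouse, and in the JNK livers it was 0 to 2 without 1 mouse. The counts after DEN, at 8 weeks and for the interaction stayed at 0 under each alternative run. Of the values of single named genes, 398 kept direction and side of the threshold, 26 lost the call, 7 gained it, and 0 turned direction. Same-numbered mice deviated together with r of 0.012 to 0.359 or below 0 across the 4 genotype comparisons; after DEN, numbers 1 and 2 had 0.359 and 0.301 and number 3 had 0.045, so in no comparison were all 3 pairs above 0.1, and the numbers were not taken as pairs. With a replicate block the count was 13 at 52 weeks and 0 after BDL, where F11 had an adjusted p of 0.0718, and the counts of 0 in the other 5 comparisons did not move. At 52 weeks every number matched its own number best, at r of 0.017 to 0.035. So did numbers 1 and 2 after DEN, and numbers 1 and 3 after BDL, the latter at r of 0.136 and 0.038. These matches are a hint from the data and not from the design. Centring also moved the genes called lower at 52 weeks from 5 to 14 among other liver-made genes, from 3 to 8 in the vitamin K list, from 2 to 10 among transcription factors and from 1 to 4 among hepatocyte markers, and the other liver-made genes called higher from 3 to 1; Onecut2 was no longer called with it. Vitamin K dependent genes called lower numbered 5, and 3 without replicate 3 of either group. Among all genes, the 1486 called lower at 52 weeks became 2417 under quantile normalisation and at lowest 898 without 1 mouse. After BDL, the 150 higher and 105 lower became 54 and 62 with all 24 arrays, 75 and 43 with animal series as a blocking term, 83 and 59 with the replicate block, and without 1 mouse the higher genes numbered 32 to 310 and the lower ones 25 at the fewest. For ligation against DEN, the 327 higher and 139 lower genes of the livers labelled control became 10 and 5 with animal series as a blocking term and 82 and 27 with the replicate block, and the 145 and 59 of the JNK livers became 1 and 0 with the replicate block. At 8 weeks, 19 higher and 38 lower genes passed with all 24 arrays in place of 0. The cause of these changes was not tested, beyond the shift of the median gene under centring. Arrays carry no depth, and without a detection call no gene could be set against background.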

Other observations

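Genes that mark the male pattern of liver expression in mice moved with the largest falls at 52 weeks, chosen after their values were seen. Mup21, a major urinary protein gene, was at 7.81 to 8.29 in the livers labelled control and at 3.38 to 4 in the NEMO/JNK livers of 52 weeks. Slco1a1, an organic anion transporter, was at 7.42 to 10.06 and at 3.54 to 4.76. After BDL, Mup21 was at 3.28 to 3.91 in the livers labelled control, where C8a was at 10.35 to 11.25 and C6 at 9.01 to 9.75. In the same livers Mbl1 was at 8.82 to 9.09, against 9.76 to 9.89 in the 52-week livers labelled control. In the livers labelled control after DEN, Mup21 was at 7.77, 6.57 and 5.80, C6 at 8.85, 8.42 and 8.00, and Mbl1 at 10.05, 8.85 and 8.90. Replicate 3 of the NEMO livers of 8 weeks had Mup21 at 7.38 and Slco1a1 at 8.78, and also the highest C8a, 10.76, and C6, 9.75, of its group. In the NEMO/JNK1 livers, replicate 3 had the highest Mup21, 5.46, and the lowest Slco1a1, 3.56, C8a, 9.05, and C6, 8.03, of its group. In the JNK livers after DEN, replicate 2 had Mup21 at 7.63, Slco1a1 at 8.73 and C6 at 7.81. Its Mbl1, 8.72, was the lowest of that group. Replicate 3 there, the liver with the Xist level of 10.38 and low Y-linked genes, had the lowest Mup21, 6.08, Slco1a1, 3.33, and C6, 7.64. The part of this pattern in the falls was not tested.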
